A study of Mus musculus with 6 samples.

Results

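The mitochondrial chromosome of the mouse carries 37 annotated genes, and each has a row in the deposited gene tables under a name that starts with "mt-". These 37 rows, of 55450 in all, are described here: 2 ribosomal RNAs, 13 mRNAs and 22 transfer RNAs. The tumours grew under the skin of C57BL/6 mice from injected MTE-Ras cells, a cancer line of mouse tracheal epithelium that carries an oncogenic RAS mutation. In 3 mice the tumour itself received phosphate-buffered saline (PBS), and in 3 mice it received PV-10, a rose bengal solution given directly into lesions. The 2 groups thus shared the line, its RAS mutation and the mouse strain, and differed in what was injected. The labels give no dose, no time between injection and collection and no age of the mice. Each tumour is 1 library and came from a separate mouse, and the spread given below is thus also one between animals.

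Mitochondrial DNA is transcribed from promoters in its control region into long RNAs that span much of each strand. The rRNAs and most mRNAs of these precursors are flanked by tRNAs, and cutting at the tRNAs releases them. The mRNAs encode core subunits of respiratory complexes I, III and IV and of the ATP synthase (complex V), and the rRNAs form the RNA part of the mitochondrial ribosome that translates them. Every protein needed for transcription, cutting, stability and translation of these RNAs is encoded in the nucleus.

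Gene counts summed to between 36730318 and 98717951 per tumour, so the largest 95% Wilson half-width of a share of all gene counts given below was 0.00879 percentage points. For the split of counts between a gene and its nuclear copy it was 0.642 percentage points, which leaves out any error in assigning reads between near-identical sequences. Such intervals, and the floor of 3 counts (0.0304 to 0.0817 CPM) used where a gene had no count, cover counting error only, because the reads carried no molecular identifiers. PV-10 tumour 3 stood apart from the other treated tumours: its log2 levels correlated at 0.909 to 0.930 with the PBS tumours and at 0.822 and 0.874 with the other PV-10 tumours. Markers of airway epithelium, the labelled origin of the line, summed to 687.97 to 1089 CPM (counts scaled to library size) in PBS and 777 to 964 in PV-10. Keratins made up most of this sum: Krt18, Krt8, Krt7 and Krt19 averaged 317, 261, 222 and 54.6 CPM over all tumours. Cdh1 had 8.75, 8.78 and 10.3 CPM in PBS and 3.06, 4.05 and 5.62 in PV-10, without overlap. Its log2 change of -1.12 (PV-10 over PBS) was not called (edgeR adjusted p = 0.0627). Epcam, Cldn4, Cldn7, Sfn and Trp63 averaged at most 1.46 CPM, and Epcam, Cldn4 and Cldn7 had no count in some tumours. In bulk RNA, more cells of a kind and more RNA per cell cannot be told apart.

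The classes of mitochondrial RNA differed between the tumours. Mitochondrial rRNA took a larger share of all gene counts in every PV-10 tumour than in any PBS tumour, and mitochondrial mRNA did not. The rRNA share was 1.87%, 1.82% and 1.68% in PBS tumours 1, 2 and 3 and 3.53%, 4.22% and 4.36% in PV-10 tumours 1, 2 and 3. The groups did not overlap, and the means were 1.79% ± 0.0975 and 4.04% ± 0.444 (SD, n = 3 each). For the mRNAs the shares were 6.11%, 5.01% and 4.18% in PBS and 2.87%, 3.81% and 4.97% in PV-10. These ranges overlapped, with means of 5.10% ± 0.970 and 3.89% ± 1.05 (SD, n = 3 each).

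All 37 genes together held 7.99%, 6.82% and 5.87% of counts in PBS and 6.40%, 8.04% and 9.32% in PV-10, so the total overlapped between the groups. The 22 tRNAs added at most 0.000332% in any tumour. An exact two-sided permutation test over tumours gave p = 0.1 for the rRNA share, p = 0.2 for the mRNA share and p = 0.4 for the total. The smallest p that 3 against 3 tumours can give is 0.1, so none of these tests could pass 0.05. Adjusted over the 10 class quantities tested this way, these exact p-values were 0.2, 0.25 and 0.444.

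The ratio of the classes within a library does not depend on how libraries are scaled to each other. Counts of rRNA over counts of mRNA came to 0.307, 0.363 and 0.403 in PBS tumours 1, 2 and 3. In PV-10 tumours 1, 2 and 3 the ratio was 1.23, 1.11 and 0.877. The lowest PV-10 value, in tumour 3, was thus above the highest PBS value, and the groups did not overlap. On the log2 scale the mean ratio was -1.49 ± 0.20 in PBS and 0.08 ± 0.25 in PV-10 (SD, n = 3 each), a difference of 1.58 (exact permutation p = 0.1, adjusted 0.2). It was 1.59 in TPM (the authors' transcript abundance, scaled by length) and 1.47 to 1.72 when any 1 tumour was left out.

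**Figure D1:**
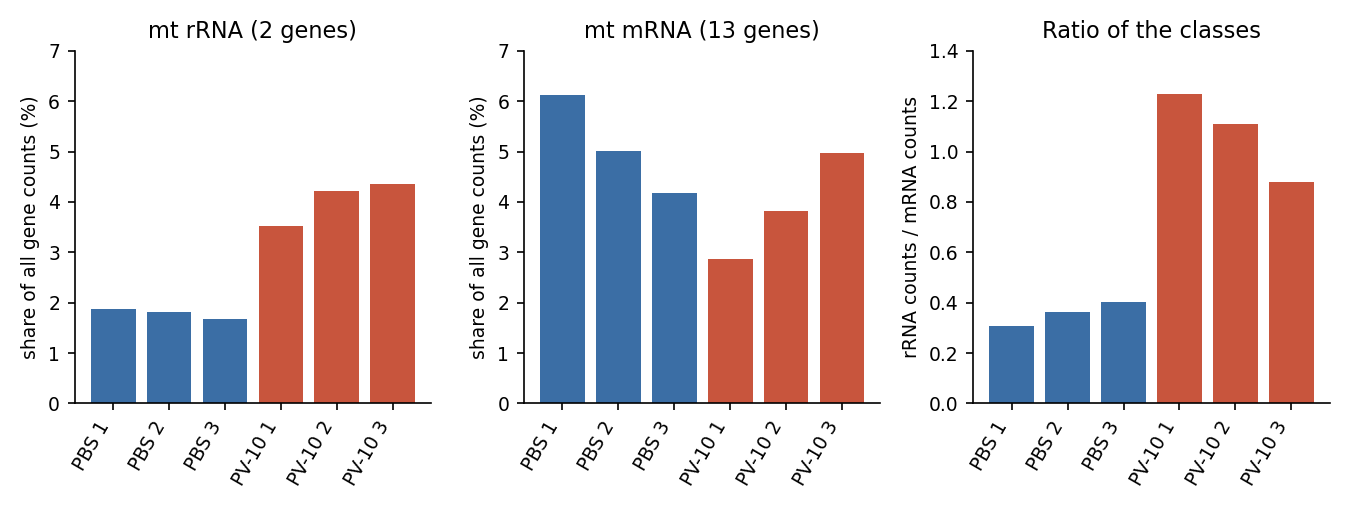
Bars give, for each of the 6 tumours, the share of all gene counts (%) in the 2 mitochondrial rRNAs (left) and the 13 mitochondrial mRNAs (middle), and the ratio of the summed rRNA to the summed mRNA counts (right); PBS tumours are blue and PV-10 tumours red. The rRNA share and the ratio separate the groups, with ratios of 0.307 to 0.403 in PBS and 0.877 to 1.23 in PV-10, while the mRNA shares overlap.

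The scale of the shares did matter. As a share of summed TPM the rRNA ran from 1.20% to 1.56% in PBS and from 1.32% to 2.56% in PV-10, which overlapped. The mRNA share of summed TPM ran from 4.66% to 6.38% in PBS and from 1.61% to 4.21% in PV-10, which did not overlap. The sign of the total also turned, from a mean difference of 1.03 percentage points in counts to -2.39 in TPM. With a set of abundant nuclear rows taken out of the count total, the differences were 3.05 points for rRNA and -0.693 for mRNA. The set was Gm42418, AY036118, Rn7sk, Rn7s1, Rn7s2, Rmrp, Rpph1 and the protein-coding gene Lars2. It did not include the row Gm26917, which had 13110 ± 6422 CPM in PBS and 6221 ± 4746 in PV-10 (SD, n = 3 each).

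Of the 37 genes, 16 passed edgeR's filter on low counts and were tested: both rRNAs, all 13 mRNAs and 1 tRNA. Changes are log2 fold changes of PV-10 over PBS from edgeR's quasi-likelihood test on counts, with CPM scaled by TMM (a scaling that assumes most genes keep their level). A gene was called at an adjusted p under 0.05, Benjamini-Hochberg over 22056 genes. Among all genes tested, 3.17% were called higher and 1.92% lower, and the median change was 0.30. Of the 16, only the rRNA mt-Rnr2 was called (higher) and none was called lower. At an unadjusted p under 0.05, 2 rRNAs, 1 mRNA and 0 tRNAs passed, all of them with a positive change. The share of all genes passing at that threshold was not computed. DESeq2, whose background was 15.7% called higher and 10.2% lower, called mt-Rnr1, mt-Rnr2, mt-Co3 and mt-Nd3 higher and none lower.

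mt-Rnr2 (ENSMUSG00000064339.1, mm10 chrM:1094-2675, plus strand) is the rRNA of the large subunit of the mitochondrial ribosome. In PBS tumours 1, 2 and 3 its level was 11995, 11057 and 10655 CPM, and in PV-10 tumours 1, 2 and 3 it was 25307, 29735 and 30792 CPM. Every PV-10 tumour lay above every PBS tumour, PV-10 tumour 3 highest of all. The rise was 2.55-fold, or 1.35 on the log2 scale (SE 0.27), with an edgeR adjusted p of 0.0443. Without any 1 of PBS tumours 1, 2 and 3 or PV-10 tumours 1 and 2 the call was lost (edgeR adjusted p = 0.0975 to 0.205). In those 5 fits 0.00356%, 0.00361%, 0.00357%, 0.00879% and 0.021% of all genes were called higher. Without a filter on low counts it also narrowly failed (adjusted p = 0.0501), and without PV-10 tumour 3 the adjusted p was 0.00163. The log2 change stayed between 1.26 and 1.44 in these fits.

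mt-Rnr1 (ENSMUSG00000064337.1, chrM:70-1024, plus strand) is the small-subunit rRNA and lies upstream of mt-Rnr2, with the valine tRNA gene mt-Tv between them. Its levels were 6628, 6327 and 5396 CPM in PBS and 11195, 12743 and 16026 CPM in PV-10. The groups did not overlap here either, but the log2 change of 1.12 (SE 0.28) missed the threshold (edgeR adjusted p = 0.0505). It was called by edgeR with DESeq2 size factors (adjusted p = 0.0335, where 6.66% of all genes were called higher and 4.84% lower). It was also called with library size alone (0.0444, with 4.44% higher and 6.62% lower) and without PV-10 tumour 3 (0.00624). The difference between the rRNAs was not resolved: mt-Rnr1 over mt-Rnr2 counts was 0.553, 0.572 and 0.506 in PBS and 0.442, 0.429 and 0.520 in PV-10, which overlapped (exact permutation p = 0.2).

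In TPM the rRNA groups overlapped. mt-Rnr2 had 5987, 7646 and 6507 TPM in PBS and 7370, 9404 and 13235 in PV-10, where the lowest PV-10 tumour was below PBS tumour 2. mt-Rnr1 had 6009, 7959 and 5945 TPM in PBS and 5853, 7236 and 12359 in PV-10. Tested by limma on log2(TPM + 1), a scale on which low genes change less, the log2 changes were 0.54 for mt-Rnr2 and 0.29 for mt-Rnr1, and neither was called. Removing each library's trend with gene length gave 0.79 and 0.44, again not called, where edgeR called 2 of 21828 genes, or 0.00916%, higher. The median change of all genes was -0.21 and -0.26 in these 2 settings, so both rRNAs stayed above it.

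Set against the mRNAs, the rRNAs had the more positive change on each scale. The change of mt-Rnr2 exceeded the median of the 13 mRNAs by 1.53 in the edgeR fit and by 1.298 to 1.673 over all settings, which include each tumour left out in turn. Settings that differ only in library scaling shift all genes nearly alike, so they could not test this difference or the order of the genes. TPM also divides by length, which varies little between libraries for long genes, so it was a weak test of both. The difference was 1.53 with library size alone and 1.55 with DESeq2 size factors. The change of each rRNA was above that of every single mRNA in all settings except without PBS tumour 1 or without PV-10 tumour 3, where mt-Nd3 lay above mt-Rnr1. mt-Rnr2 and mt-Nd1, a complex I subunit gene, lie next to each other on the same strand, with the leucine tRNA gene mt-Tl1 between them. The count ratio of mt-Rnr2 to mt-Nd1 was 2.09, 2.69 and 2.61 in PBS and 7.48, 7.73 and 5.54 in PV-10. The groups did not overlap (exact permutation p = 0.1, the smallest possible).

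Abundant nuclear noncoding RNAs were higher alongside the mitochondrial rRNA. Gm42418, a nuclear row that overlaps ribosomal RNA sequence, had 30795, 24381 and 33281 CPM in PBS and 117907, 114070 and 96117 CPM in PV-10, and rose (log2 change 1.89, edgeR adjusted p = 0.0443). Rn7s1, a signal recognition particle RNA, rose by a log2 change of 1.14 (edgeR adjusted p = 0.0470) and Rn7sk, a nuclear regulator of transcription elongation, by 2.20 (0.0443). The row Gm26917 was not called, at 13110 ± 6422 CPM in PBS and 6221 ± 4746 in PV-10 (SD, n = 3 each). These rows were chosen with earlier results known. The part of such RNAs in the mitochondrial rRNA result was not tested.

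edgeR's fit of all 6 tumours called none of the 13 mRNAs in either direction. Their log2 changes ran from -0.61 to 1.02 with a median of -0.19, against 0.30 for all genes, and 3 were positive and 10 negative. edgeR adjusted p-values ran from 0.0617 to 0.878. By CPM the groups did not overlap for 2 mRNAs, both higher in PV-10, and for 0 lower, where 22.0% of all genes did so in the higher and 16.8% in the lower direction. By TPM they did not overlap for 6 mRNAs, all lower in PV-10 (mt-Nd1, mt-Co1, mt-Co2, mt-Atp8, mt-Nd4 and mt-Nd5), and for 0 higher, against 31.0% of all genes lower and 9.58% higher. Limma on log2(TPM + 1) called mt-Co1, mt-Co2, mt-Atp8, mt-Nd4 and mt-Nd5 lower, with 17.2% of all genes called lower.

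The 7 complex I genes encode membrane subunits of NADH dehydrogenase, which takes electrons from NADH. mt-Nd1 had 5727, 4114 and 4078 CPM in PBS and 3384, 3845 and 5555 in PV-10, with overlap and a log2 change of -0.12. mt-Nd2 had 5951, 3072 and 3071 CPM in PBS and 2980, 3747 and 4622 in PV-10, also overlapping, with a change of -0.09. In both genes PBS tumour 1 was the highest tumour and PV-10 tumour 1 the lowest. The sign of neither held: mt-Nd1 gave 0.019 with a minimum mean count of 50, and mt-Nd2 gave 0.053.

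mt-Nd4 showed the most negative change of the 13, -0.61 (SE 0.32, edgeR adjusted p = 0.229). Its levels were 6807, 5293 and 4825 CPM in PBS and 2604, 3611 and 4857 in PV-10, and PV-10 tumour 3 reached into the PBS range. mt-Nd4l, whose frame runs into that of mt-Nd4, had 474, 288 and 287 CPM in PBS and 194, 280 and 457 in PV-10. mt-Nd5 had 8716, 5512 and 5068 CPM in PBS and 4011, 5467 and 6295 in PV-10, a log2 change of -0.29. Both overlapped between the groups.

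mt-Nd6 is the single mRNA gene on the minus strand (chrM:13552-14070), so it comes from the other precursor than the rRNAs and the remaining mRNAs. It had 690, 464 and 410 CPM in PBS and 472, 676 and 628 in PV-10, overlapping, with a log2 change of 0.18. Relative to the summed counts of the other mRNAs it was 0.0115, 0.00976 and 0.0104 in PBS and 0.0161, 0.0179 and 0.0119 in PV-10. That ratio did not overlap between the groups, though PV-10 tumour 3 came close to PBS tumour 1 (exact permutation p = 0.1, the smallest possible). The gene ends overlap those of mt-Nd5 on the other strand, and without a stated strand setting for the counting their reads cannot be told apart there. The sign of the mt-Nd6 change turned in TPM (-0.66) and with the length trend removed (-0.72).

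mt-Nd3 (ENSMUSG00000064360.1, chrM:9459-9806) came closest to a call among the mRNAs. It stood at 82.7, 59.9 and 46.5 CPM in PBS and 144, 123 and 117 CPM in PV-10, and the groups did not overlap. The log2 change was 1.02 (SE 0.29, edgeR adjusted p = 0.0617), and the gene was called by DESeq2, with DESeq2 size factors and without PV-10 tumour 3. It was also called with a minimum mean count of 50 (10.1% of all genes called higher, 7.04% lower), without a filter (5.2% and 6.7%) and with the replicate number as a block (4.78% and 8.24%). With the length trend removed the change was -0.04. Its row holds the smaller part of the reads that match it, as described below for the nuclear copies.

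Cytochrome c oxidase, complex IV, hands electrons to oxygen and takes its core from mt-Co1, mt-Co2 and mt-Co3. mt-Co1 had 13440, 16115 and 11534 CPM in PBS and 6151, 8236 and 15179 in PV-10: PV-10 tumours 1 and 2 lay below every PBS tumour and tumour 3 within them. Its log2 change was -0.47 (SE 0.37, edgeR adjusted p = 0.414). mt-Co2 had 654, 480 and 334 CPM in PBS and 343, 271 and 435 in PV-10, overlapping, with a change of -0.48. mt-Co3 went the other way, with 870, 868 and 797 CPM in PBS and 981, 974 and 1367 in PV-10 and no overlap. The change of mt-Co3 was 0.39 (SE 0.27, edgeR adjusted p = 0.359) and turned negative in TPM (-0.46) and with the length trend removed (-0.34).

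The apocytochrome of complex III, mt-Cytb, had 13322, 8907 and 7242 CPM in PBS and 6782, 8337 and 10796 in PV-10, overlapping, with a log2 change of -0.19. The ATP synthase genes mt-Atp8 and mt-Atp6 share a transcript. mt-Atp8 had 710, 674 and 683 CPM in PBS, a tight group at 689 ± 18.7 (SD, n = 3). In PV-10 mt-Atp8 had 389, 411 and 787 CPM, with tumour 3 above every PBS tumour and tumours 1 and 2 below them. mt-Atp6 had 3298, 2102 and 1477 CPM in PBS and 1285, 2379 and 2286 in PV-10, which overlapped. Without PV-10 tumour 3, edgeR called mt-Co1, mt-Atp8 and mt-Nd4 lower and mt-Rnr1, mt-Rnr2 and mt-Nd3 higher, where 16.4% of all genes were called lower and 25.0% higher.

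**Figure D2:**
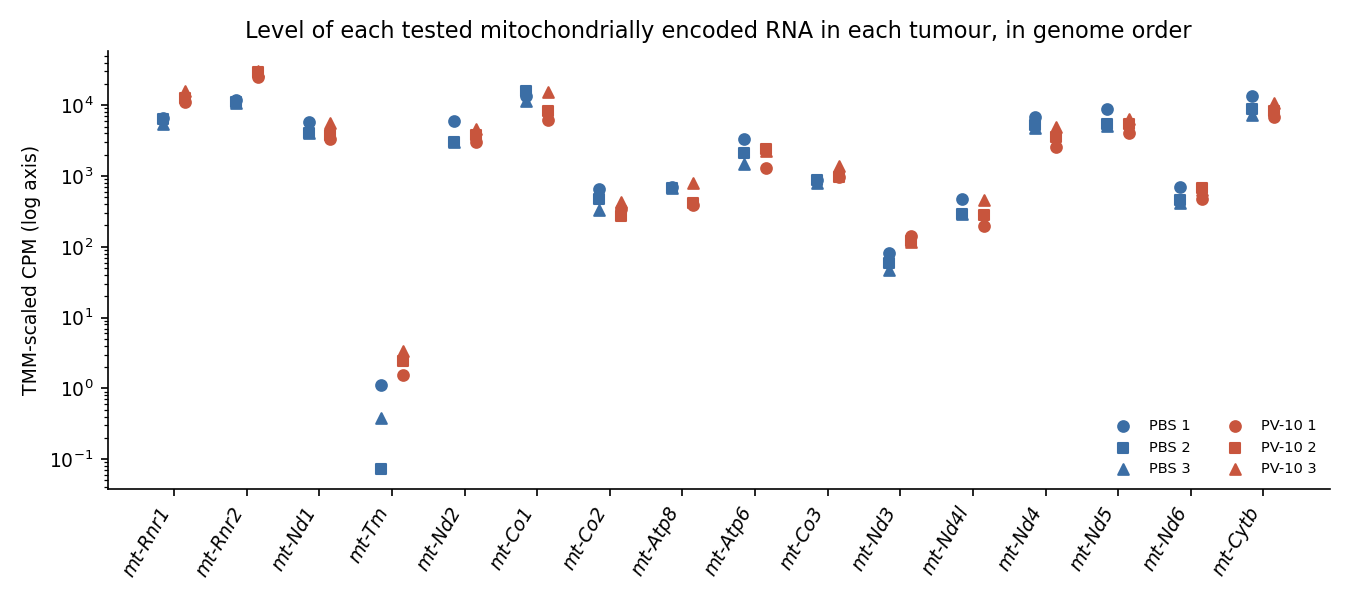
Points give the TMM-scaled CPM (log axis) of each of the 16 tested mitochondrial genes in each tumour, in genome order, with PBS in blue, PV-10 in red and the shape marking the tumour number. Only tumours within a gene are to be compared, since CPM is not scaled by length; both rRNAs, mt-Tm, mt-Co3 and mt-Nd3 have no overlap between the groups.

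**Figure D3:**
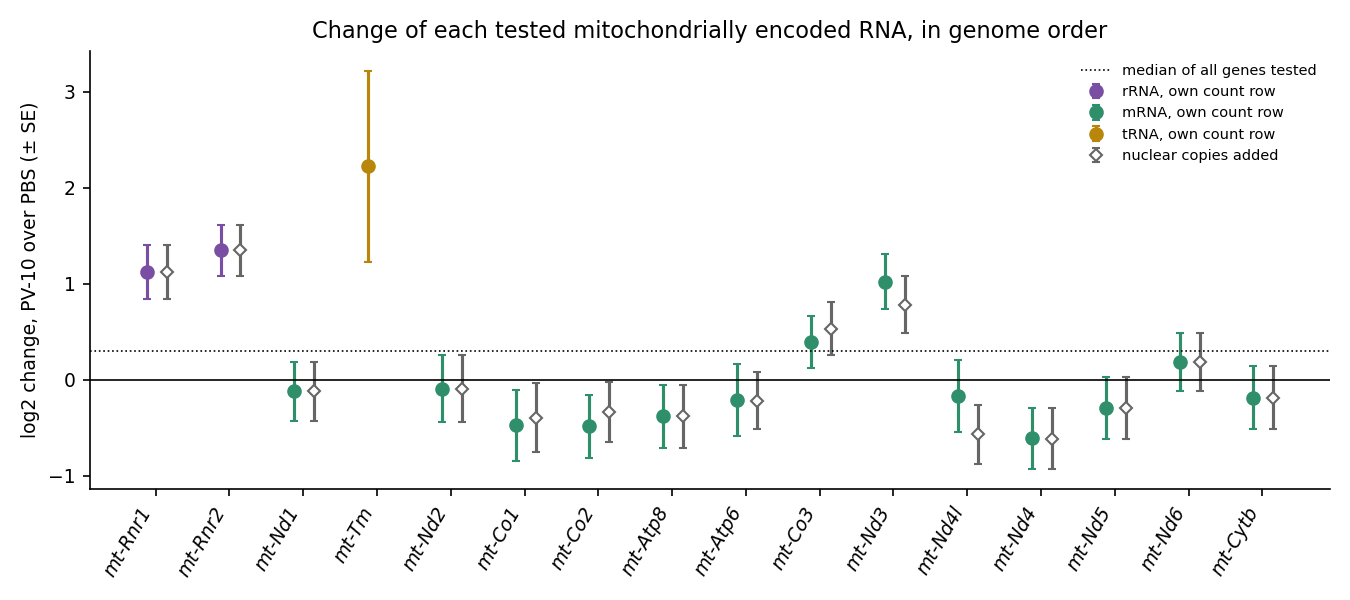
Points give the edgeR log2 change, PV-10 over PBS, with bars of 1 SE (3 tumours per group) for each tested gene's own row, coloured by class, and open diamonds with the counts of nuclear copies added. The rRNAs lie at 1.12 and 1.35, and 10 of 13 mRNAs lie below 0; the dotted line is the median of all genes tested, 0.30.

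The counts of several mRNAs were shared with nuclear copies. A search of annotated pseudogene transcripts (Gencode M21, mm10) found 11 that match a mitochondrial gene at 95% identity or more over at least 50% of their length. Of these, 6 held over 1% of the counts of their mitochondrial gene, and all 6 lie side by side on the minus strand of chromosome 1, within the 3791 bases of chr1:24612407-24616197. The other 5 held at most 1232 counts in any tumour. Together the copies took 9.46% to 15.5% of the counts of mitochondrial mRNAs and copies per tumour.

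Over 4 of these 6 pairs the aligned sequence is identical, so a read inside it cannot be assigned by sequence. The other 2 differ at 1 base each, and those stretches are shown because they are the places where a read could tell gene from copy. Capitals mark the differing base, sequences run 5′ to 3′ on the gene's strand, and positions count from 1 at the first base of the mitochondrial gene. mt-Nd3 at chrM:9459-9491 and Gm28438 at chr1:24613087-24613119 (minus strand) differ by T3C. mt-Co1 at chrM:6390-6423 and Gm29216 at chr1:24616155-24616188 (minus strand) differ by A1066T.
mt-Nd3: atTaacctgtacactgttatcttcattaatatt
Gm28438: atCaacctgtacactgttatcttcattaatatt
mt-Co1: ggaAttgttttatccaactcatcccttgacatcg
Gm29216: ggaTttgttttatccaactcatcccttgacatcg

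For mt-Co2 the copy Gm28661 held most of the pair's counts, 82.2%, 87.3% and 87.3% in PBS and 82.3%, 89.6% and 87.3% in PV-10. Gm28438 held 82.7%, 77.6% and 88.9% of the mt-Nd3 pair in PBS and 78.2%, 79.9% and 84.0% in PV-10. In both pairs the mitochondrial row thus kept the smaller part in every tumour, and the groups overlapped. Gm10222 held 51.8% to 71.2% of the mt-Nd4l pair, Gm28437 held 45.2% to 59.5% of the mt-Co3 pair and Gm10925 held 28.1% to 58.7% of the mt-Atp6 pair. These splits varied between tumours of 1 group: for mt-Atp6 the copy held 28.1%, 52.1% and 58.7% in PBS tumours 1, 2 and 3.

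Gm29216 matches the last 483 bases of mt-Co1 and behaved otherwise. It held 0.810%, 1.96% and 1.65% of the pair's counts in PBS and 8.13%, 7.93% and 5.76% in PV-10, and here the groups did not overlap. It is among the 6 copies and was the 1 whose share separated the groups, which was seen after the values were known and was not tested further.

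**Figure D4:**
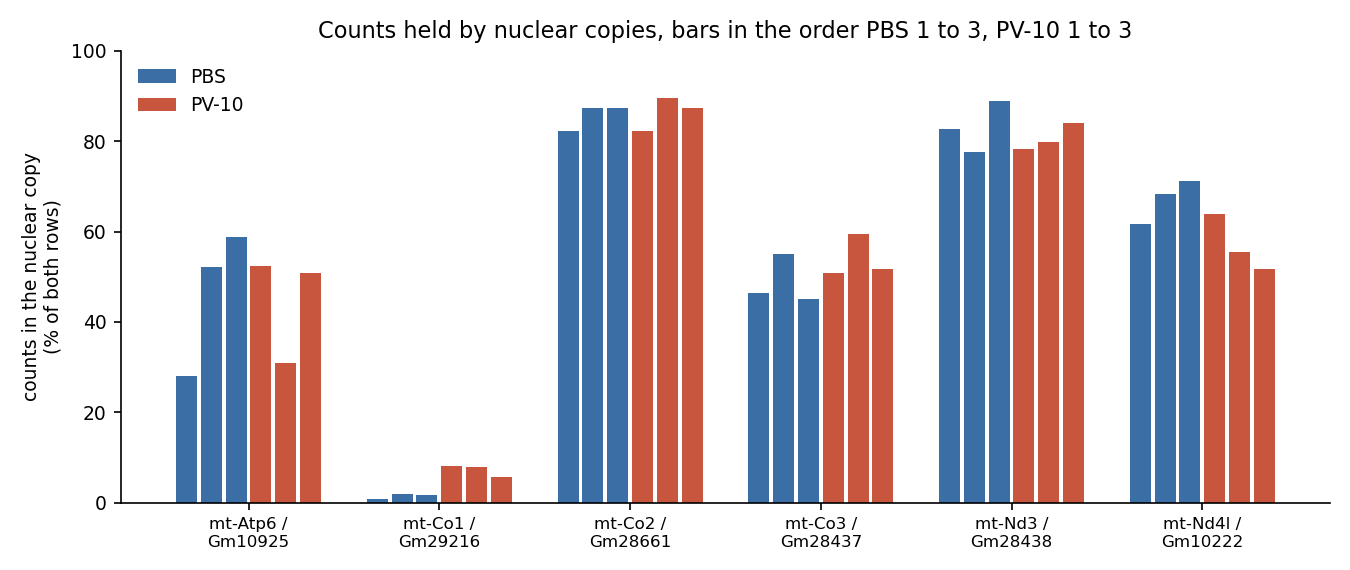
Bars give, for each mitochondrial mRNA and its nuclear copy on chromosome 1, the copy's counts as % of the counts of both rows, in the order PBS tumours 1 to 3 (blue) and PV-10 tumours 1 to 3 (red). The copy holds 77.6% to 89.6% for mt-Co2 and mt-Nd3, and under 10% for mt-Co1, where the PV-10 bars are the higher ones.

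With the copies' counts added to their genes, still only mt-Rnr2 was called and the median change of the mRNAs was -0.22. mt-Nd3 moved from 1.02 to 0.78 (SE 0.30, edgeR adjusted p = 0.114) and had 478, 267 and 419 CPM in PBS and 658, 609 and 734 in PV-10, still without overlap. mt-Co3 moved from 0.39 to 0.53 (SE 0.28, edgeR adjusted p = 0.230), with 1625, 1928 and 1454 CPM in PBS and 1999, 2403 and 2831 in PV-10 and no overlap. mt-Nd4l moved from -0.17 to -0.57 and mt-Co2 from -0.48 to -0.34. The log2 difference in the ratio of rRNA to mRNA was 1.54 with copies added, next to 1.58 without.

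Adding the copies changed the order of the mRNAs by level, which can be compared between genes in TPM. In PBS tumours, by mean TPM with copies added, mt-Atp8 came first at 13232 ± 2913, then mt-Co1 at 8660 ± 2620, mt-Cytb at 8367 ± 1721, mt-Nd4l at 7232 ± 469 and mt-Atp6 at 7047 ± 1353 (SD, n = 3). mt-Co2, mt-Nd1, mt-Nd4, mt-Nd2, mt-Nd5, mt-Co3 and mt-Nd3 followed in that order, and mt-Nd6 was last at 1274 ± 222. In PV-10 tumours mt-Atp8 was first at 4883 ± 2988, then mt-Cytb at 4465 ± 2008, mt-Co1 at 4006 ± 2725, mt-Atp6 at 3553 ± 1738 and mt-Nd1 at 2739 ± 1345 (SD, n = 3). There mt-Nd4l, mt-Co2, mt-Nd2, mt-Co3, mt-Nd3, mt-Nd5 and mt-Nd4 followed, and mt-Nd6 was last at 830 ± 266. By mean over all 6 tumours mt-Co2 was at rank 6 with copies added and at rank 12 on its own row, and mt-Nd4l at rank 5 and rank 9. Ranges of neighbours in these orders overlapped across the tumours of their group, with exceptions in PBS. There mt-Nd1 (at least 4482 TPM) lay above mt-Nd4 (at most 4293 TPM), and mt-Nd3 (at least 1595) above mt-Nd6 (at most 1445). In each PBS tumour taken alone, mt-Atp8 also stayed above mt-Co1, mt-Atp6 above mt-Co2, mt-Nd2 above mt-Nd5 and mt-Nd5 above mt-Co3. In each PV-10 tumour, mt-Atp6 stayed above mt-Nd1, mt-Nd1 above mt-Nd4l, mt-Co2 above mt-Nd2 and mt-Nd2 above mt-Co3. So did mt-Nd3 above mt-Nd5 and mt-Nd4 above mt-Nd6. The remaining neighbours changed places between tumours of a group. In every PV-10 tumour both rRNAs stood above every mRNA, in tumour 1 with 5853 and 7370 TPM against 2951 TPM for mt-Atp8. In every PBS tumour both stood below mt-Atp8, in tumour 1 with 6009 and 5987 TPM against 11161.

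mt-Atp8 and mt-Atp6 overlap in different frames, and so do mt-Nd4l and mt-Nd4. Reads in an overlap belong to both genes, so the stretches are shown with the shared bases in capitals (mm10, plus strand, Gencode M21), each with 30 bases on either side. For mt-Atp8 and mt-Atp6 the shared 43 bases are chrM:7927-7969 within chrM:7897-7999. For mt-Nd4l and mt-Nd4 the shared 7 bases are chrM:10167-10173 within chrM:10137-10203.
mt-Atp8 and mt-Atp6: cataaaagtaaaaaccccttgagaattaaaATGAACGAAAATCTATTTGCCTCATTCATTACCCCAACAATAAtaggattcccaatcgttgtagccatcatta
mt-Nd4l and mt-Nd4: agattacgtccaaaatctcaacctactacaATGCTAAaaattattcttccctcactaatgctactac

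The ratio of the partners' levels was compared within each tumour. With copies added, mt-Atp8 over mt-Atp6 in TPM was 1.73, 1.93 and 1.97 in PBS and 1.37, 1.12 and 1.51 in PV-10, and the groups did not overlap (exact permutation p = 0.1, the smallest possible). On the rows alone the ratio ran from 2.40 to 4.77 in PBS and from 1.63 to 3.08 in PV-10, with overlap. mt-Nd4l over mt-Nd4 in TPM with copies added was 1.83, 1.79 and 1.95 in PBS and 1.86, 1.57 and 1.73 in PV-10, which overlapped. mt-Atp8 is the shortest of the 13 at 204 bases, close to the length of a read pair, and its TPM depends on the effective length the authors' software gave it.

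Within the mRNAs, the share of the summed mRNA TPM in the complex V genes was 27.9%, 32.4% and 31.0% in PBS and 24.7%, 24.9% and 26.2% in PV-10. The groups did not overlap (means 30.5% ± 2.31 and 25.3% ± 0.839, SD, n = 3 each, exact permutation p = 0.1, adjusted 0.2). With copies added they did overlap, with means of 28.3% and 23.8%, and as a share of counts, where mt-Atp8 weighs little, the difference was 0.284 percentage points. Complex I genes held 35.8% ± 3.77 and 39.7% ± 1.96 of mRNA TPM, complex III 14.99% ± 1.85 and 17.1% ± 0.942 and complex IV 18.8% ± 3.04 and 18.0% ± 2.05 (PBS and PV-10, SD, n = 3 each). For these complexes the groups overlapped.

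Among single genes, mt-Nd4 took 7.03%, 6.72% and 7.39% of mRNA TPM in PBS and 5.49%, 6.10% and 5.80% in PV-10. mt-Co3 took 1.79%, 2.21% and 2.41% in PBS and 4.06%, 3.23% and 3.20% in PV-10. mt-Nd3 took 0.615%, 0.560% and 0.489% in PBS and 2.00%, 1.37% and 0.920% in PV-10. These shares, and those of mt-Nd1 and mt-Nd6, which were higher in PV-10, did not overlap (each exact permutation p = 0.1, adjusted over 13 genes 0.26). For mt-Nd4, mt-Co3, mt-Nd3 and mt-Nd1 that also held with copies added, while mt-Nd6 then overlapped and mt-Atp8 and mt-Nd4l were lower without overlap.

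Across the 13 mRNAs the log2 change correlated with log2 length at r = -0.36, with GC content at r = -0.30 and with the start position at r = 0.15. With copies added these were -0.20, -0.32 and 0.087. The genes share libraries and partly 1 precursor, so these are descriptions. In 3 genes, mt-Co3 (784 bases), mt-Nd4 (1378) and mt-Cytb (1144), the annotated length leaves 1 base over whole codons, and the stop codon is completed by polyadenylation. Their log2 changes were 0.39, -0.61 and -0.19 in the edgeR fit, with none called, and -0.46, -1.45 and -0.98 in TPM, where limma called mt-Nd4 lower (adjusted p = 0.0234).

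Of the 22 tRNAs, 19 had a count of 0 in every tumour, which allows up to 0.0304 to 0.0817 CPM depending on the tumour. They are 59 to 75 bases long, shorter than the 100-base reads, and 14 lie on the plus and 8 on the minus strand. In the deposited TPM table all 22 are listed at 0. mt-Te (glutamate) had 26 counts in PBS tumour 1 and none elsewhere, and mt-Tl1 (leucine) had 19 counts in PV-10 tumour 3 and none elsewhere.

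mt-Tm, the methionine tRNA that both starts and extends mitochondrial proteins, was the 1 tRNA that passed the filter. It is shown because it alone stands for its class here (mm10 chrM:3845-3913, plus strand, Gencode M21, anticodon in capitals).
mt-Tm: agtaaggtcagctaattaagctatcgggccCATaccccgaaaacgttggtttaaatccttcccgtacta

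Its counts were 98, 7 and 40 in PBS and 89, 90 and 294 in PV-10, or 1.11, 0.0724 and 0.386 CPM against 1.53, 2.46 and 3.35 CPM. The groups did not overlap in CPM, but the PBS tumours differed widely among themselves. The log2 change of 2.22 (SE 1.00) was not called (edgeR adjusted p = 0.169). mt-Tm ends at base 3913 and mt-Nd2 starts at base 3914 of the same strand, with no base between them.

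The nuclear genes that transcribe, process, translate and house mitochondrial RNA were taken as 5 lists with 140 tested genes. Of the 140, 29 rose and 0 fell, where 3.17% and 1.92% of all genes did, and their median log2 change was 0.60 against 0.30 for all genes. At an unadjusted p under 0.05, 67 were higher and 8 lower. The share of all genes at that threshold was not computed, so these counts have no background to be read against. DESeq2 called 62 higher and 5 lower, where 15.7% and 10.2% of all genes were called. With the length trend removed 0 were called (edgeR called 2 genes in all), and limma on log2(TPM + 1) called 1 higher and 10 lower (1.14% and 17.2% of all genes). Without PV-10 tumour 3, edgeR called 66 higher and 16 lower (25.0% and 16.4% of all genes), and without any other tumour 0 were called higher.

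Mitochondrial ribosomal proteins, the partners of the 2 rRNAs, made up most of these calls: 23 of 78 rose and 0 fell. A positive change was seen in 71 of the 78, where 58.5% of all genes had one. Only 40 of the 78 were positive with the length trend removed, and 40 by limma on log2(TPM + 1). Their median was 0.79, and their summed level ran from 1374 to 1626 CPM in PBS and from 2201 to 3781 in PV-10, without overlap. Mrpl21, a large-subunit protein, had 29.7, 25.1 and 30.8 CPM in PBS and 130, 115 and 46.1 in PV-10 (log2 change 1.77, SE 0.39, edgeR adjusted p = 0.0443). Mrpl14 rose by 1.73, Mrpl11 by 1.69 and Mrpl32 by 1.59. Other called members share that adjusted p, and these 4 come first in the alphabet. Larger changes among them, chosen after their values were seen, were 2.48 for Mrpl41 and 2.15 for Mrpl33. In Mrpl21, Mrpl14, Mrpl11 and Mrpl32, PV-10 tumour 3 lay nearest to PBS, the opposite of mt-Rnr2, where it was the highest. With the length trend removed the list's median was 0.08, against -0.26 for all genes.

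For transcription and the nucleoid, 1 of 14 genes rose, Ssbp1, the single-stranded DNA-binding protein of replication, with 37.9, 32.6 and 35.9 CPM in PBS and 123, 111 and 68.3 in PV-10 (log2 change 1.51). The median was 0.56. Polrmt, the mitochondrial RNA polymerase, had 15.6, 18.1 and 19.3 CPM in PBS and 5.23, 5.39 and 10.4 in PV-10, without overlap. Its log2 change of -1.33 (SE 0.33) missed the threshold (edgeR adjusted p = 0.0505). Of 15 alternatives, 8 called it lower, among them DESeq2 (0.00388), TPM (0.0336) and the fit without PV-10 tumour 3 (0.00162). Tfam, which packs the DNA and opens promoters, gave 0.60 (adjusted p = 0.149 by edgeR), and Tefm, the elongation factor, gave 1.44 (0.0597). Of the 15 alternatives 2 called Tfam higher and 5 called Tefm higher. The sign for Tfam turned in TPM (-0.25).

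Among genes for RNA cutting, base modification and tRNA maturation, 2 of 17 rose and the median was 0.21. They were Hsd17b10, a subunit of the enzyme that cuts the 5′ ends of tRNAs, with a log2 change of 1.26 (edgeR adjusted p = 0.0496), and Trnt1, which adds the CCA end, with 1.17 (0.0462). Elac2, which cuts the 3′ ends, had 20.8, 22.2 and 27.7 CPM in PBS and 5.68, 9.83 and 19.6 in PV-10, a log2 change of -1.01 (SE 0.42) that was not called (edgeR adjusted p = 0.142) but was in 4 of the 15 alternatives.

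Of 15 genes for stability, polyadenylation and decay, 1 rose, and the median was -0.19. Slirp, the partner of Lrpprc in the complex that stabilises mitochondrial mRNAs, had 7.01, 7.32 and 7.78 CPM in PBS and 26.6, 25.8 and 15.5 in PV-10 (log2 change 1.62, SE 0.29, edgeR adjusted p = 0.0443). Lrpprc itself had 50.9, 50.8 and 62.7 CPM in PBS and 35.3, 34.6 and 47.4 in PV-10, a change of -0.49 that was not called by edgeR (adjusted p = 0.235) but was in 2 of the 15 alternatives. The 2 partners thus had changes of opposite sign, and neither had overlapping groups. The degradosome genes Pnpt1 and Supv3l1 gave 0.59 and -0.21 and were not called, though 3 of the 15 alternatives called Pnpt1 higher and 0 called Supv3l1. The sign for Pnpt1 turned in TPM (-0.15).

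Genes that report mitochondrial mass and matrix content had a median of -0.16, with 2 of 16 higher. Both encode parts of the protein import machinery: Tomm20 rose by a log2 change of 1.85, from 136 ± 9.44 to 490 ± 195 CPM, and Timm23 by 1.496, from 53.3 ± 6.35 to 150 ± 52.4 CPM (SD, n = 3 each, edgeR adjusted p = 0.0443 for each). edgeR's fit of all 6 tumours called none of the list lower. DESeq2 called 4 higher and 4 lower (15.7% and 10.2% of all genes). Limma on log2(TPM + 1) called 0 higher and 6 lower (1.14% and 17.2% of all genes). Without PV-10 tumour 3, edgeR called 4 higher and 7 lower (25.0% and 16.4% of all genes). The summed level of the list was 2278 to 2482 CPM in PBS and 2537 to 2553 in PV-10, a narrow gap without overlap. Tomm20 alone averaged 354 CPM more in PV-10 than in PBS, while 7 of the 16 genes had a positive and 9 a negative change. The gap in the sum thus does not stand for the list as a whole.

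**Figure D5:**
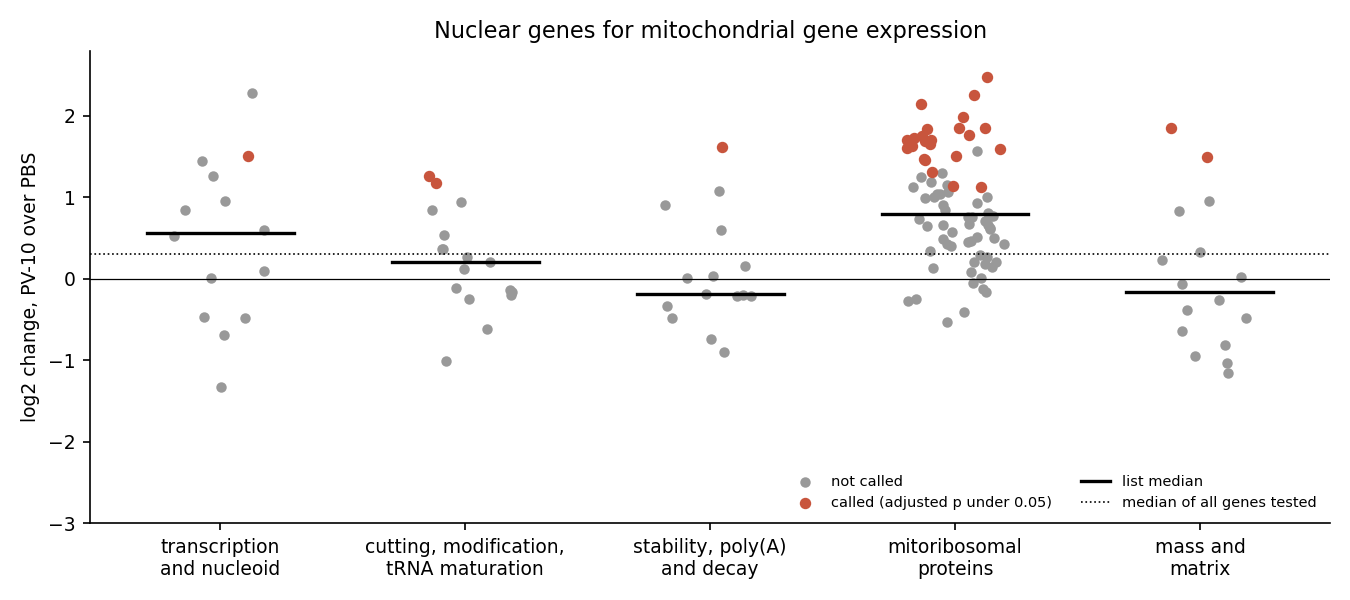
Each point is the edgeR log2 change, PV-10 over PBS, of 1 nuclear gene in 5 lists of genes for mitochondrial RNA and protein (140 genes), red where called; bars mark list medians and the dotted line the median of all genes tested, 0.30. Calls are all positive and 23 of the 29 are mitochondrial ribosomal proteins.

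Markers of other cell types were compared because cell types differ in mitochondrial content. Skeletal muscle markers summed to 45.0, 10.6 and 7.95 CPM in PBS and 88.1, 375 and 7.13 in PV-10 (12 genes, of which 11 were tested). These ranges overlapped. Adipocyte markers ran from 9.34 to 13.2 CPM in PBS and from 16.3 to 30.9 in PV-10, and red blood cell markers from 2.96 to 5.91 and 7.53 to 11.6, each without overlap. Of the adipocyte markers, Adipoq, Cidea, Ucp1 and Adrb3 were at 0 in every PBS tumour and also in PV-10 tumour 3. They reached at most 1.70 CPM (Adipoq in PV-10 tumour 2), and none of them passed the filter to be tested. Leukocyte markers ran from 746 to 1132 CPM in PBS and 1166 to 1331 in PV-10, without overlap. The lysozyme gene Lyz2 alone had 432 ± 106 CPM in PBS and 935 ± 163 in PV-10 (SD, n = 3). Without Lyz2 the leukocyte markers summed to 585, 414 and 409 CPM in PBS and 291, 267 and 415 in PV-10, which overlapped. Skin markers ran from 12.1 to 77.3 CPM in PBS and 30.7 to 41.3 in PV-10, fibroblast markers from 2645 to 5874 and 3275 to 6240, and endothelial markers from 202 to 456 and 130 to 385, each with overlap. Of the 67 marker genes tested in 8 lists, edgeR's fit of all 6 tumours called 0, where 3.17% of all genes were called higher and 1.92% lower. DESeq2 called 13 markers higher and 3 lower, where 15.7% and 10.2% of all genes were called. Without PV-10 tumour 3, edgeR called 15 markers higher and 8 lower (25.0% and 16.4% of all genes). No marker was at 0 in all tumours. The part of these cell types in the mitochondrial values was not tested.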

How the data were processed

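Per the labels' protocols, strand-specific NuGEN Universal libraries were read as 100-base pairs, adapters were removed with cutadapt 1.8.1, and reads were aligned to mm10 with STAR 2.7.7a and assigned to genes of Gencode M21 with RSEM 1.3.0. The strand setting of RSEM and any removal of rRNA are not given in the sources used here. The deposited count table holds RSEM's estimated counts per gene, which RSEM can split between near-identical genes, and 100% of its values were whole numbers. The deposited TPM table holds the authors' TPM, transcript abundance scaled by length to a fixed total. Of rows that share a symbol, the one with the highest mean count was used.

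edgeR 4.0.16 (R 4.3.3) fitted a robust quasi-likelihood model to all 6 tumours, with its expression filter, TMM scaling and Benjamini-Hochberg adjustment. It was tested on simulated data. Alternatives were DESeq2 1.42.0 (the tool the labels state), other scalings and filters, limma 3.58.1 on log2(TPM + 1), removal of each library's length trend (spline with 5 degrees of freedom on effective length, for genes of at least 0.1 TPM), nuclear copies added, a replicate block and each tumour left out. Class quantities and ratios used exact two-sided permutation tests over tumours.

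Values per tumour are given for the rRNAs, mRNAs and tested tRNAs. From each nuclear list up to 4 called genes with the smallest adjusted p are named (ties in alphabetical order), besides Polrmt, Tfam, Tefm, Lrpprc, Slirp, Elac2, Pnpt1 and Supv3l1. Nuclear copies are named where they hold over 1% of a gene's counts. The genes, lists and tests were chosen with earlier results of these data known.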

Additional observations from a re-analysis of the deposited data

How the results depend on the processing

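The log2 difference in the ratio of rRNA to mRNA counts stayed at 1.47 to 1.72 under the alternatives run for it. These were TPM, nuclear copies added and each tumour left out. TPM divides by a gene's length, which varies little between libraries for long genes, so it was a weak test of this difference. The calls did not. The number of mitochondrial genes called higher was 1, and it was 4 with DESeq2, 3 with DESeq2 size factors or a mean count of at least 50, 2 with library size alone, and 0 with the length trend removed or in TPM, where 5 were called lower. With 1 tumour left out, 0 to 3 were called higher and 0 to 3 lower. The nuclear genes called higher, 29, came to 62 with DESeq2, 44 with its size factors, 55 with a mean count of at least 50, 1 in TPM and 0 with the length trend removed. Those called lower, 0, came to 5, 1, 1, 10 and 0 in the same order, to 2 with library size alone and to 6 without a filter. With 1 tumour left out, 0 to 66 nuclear genes were called higher and 0 to 16 lower, the upper ends without PV-10 tumour 3, and the cause was not tested.

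Replicate numbers are shared between the groups. Deviations of same-numbered tumours correlated at -0.049, 0.071 and 0.072, and those of the other pairs at -0.113 to 0.080. With 3 tumours per group these values cannot settle whether the numbers pair the tumours. With the replicate block 2 mitochondrial genes (mt-Rnr2 and mt-Nd3) were called higher, and 38 nuclear genes were called higher and 4 lower, with 4.78% of all genes called higher and 8.24% lower.

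In percentage points, the difference in the share of all mitochondrial RNA was -2.39 in TPM (turned from 1.03) and 2.35 without the set of abundant nuclear rows. For rRNA it was 0.513 and 3.05, and for mRNA -2.90 in TPM. Leaving out 1 tumour gave 0.328 to 1.79 for all, 2.09 to 2.498 for rRNA, -1.76 to -0.710 for mRNA and 0.000133 to 0.000225 for tRNA. The log2 difference of tRNA over mRNA was then 2.01 to 3.98. The makeup difference of complex IV was -3.72 in counts and turned to 1.11 with copies added, and that of complex V turned to 0.284 in counts. With 1 tumour left out these differences were 1.96 to 5.72 for complex I, 1.45 to 3.12 for III, -2.37 to 0.655 for IV (positive without PBS tumour 2) and -6.48 to -4.22 for V.

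Single genes whose log2 change turned sign were mt-Nd1 (0.019 with a mean count of at least 50), mt-Nd2 (0.00051 with DESeq2 and with its size factors, 0.053 with that filter), and mt-Co3 (-0.34 with the length trend removed, -0.46 in TPM). The others were mt-Nd3 (-0.035 with the length trend removed), mt-Nd6 (-0.72 and -0.66 in these 2), Tfam (-0.25 in TPM) and Pnpt1 (-0.15 in TPM). With 1 tumour left out, the ranges that crossed 0 were -0.36 to 0.028 for mt-Nd1, -0.28 to 0.27 for mt-Nd2, -0.47 to 0.11 for mt-Atp6, -0.56 to 0.086 for mt-Nd4l and -0.39 to 0.064 for mt-Cytb.

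The tRNA share and ratio could not be had in TPM, where tRNAs are listed at 0, and mt-Tm had no effective length for the length trend. At these depths 19 tRNAs had no count in any tumour.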
